A study of Rattus norvegicus with 8 samples.

Results

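The genes described here are 49 genes whose products copy DNA: the proteins that mark and license origins of replication, start and drive the fork, supply nucleotides and restore chromatin behind it. They were taken from a list of symbols, and each gene was represented by the brightest probe set that the annotation of the array pairs with that gene alone. Of the 49 genes, 46 had such a probe set, out of 14506 genes represented in all. Dbf4, Pole2 and Chaf1a did not, so their transcript levels were not analysed here.

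Gene expression was measured on 8 arrays of cultured heart muscle cells, primary cardiomyocytes isolated from the ventricles of neonatal rats and plated in 6 cm dishes. One group of 4 had received a synthetic precursor of miR-222 at 0.4 µM, and the other 4 a precursor of scrambled sequence at the same dose, both with a lipid reagent and both collected after 48 h. The rats' strain, sex and litters are not given in the sources used here, and the labels do not say whether each array came from a culture of its own. The p-values below therefore rest on the spread between arrays, which may be technical. The study's title names miR-222 as needed for the growth of the heart with exercise, and the comparison asks which transcripts differ in cardiomyocytes given more of it. Mature miR-222 has the same seed as miR-221, the stretch of bases 2 to 8 by which a microRNA pairs with its targets, as their RefSeq sequences on rat build GRCr8 show (chrX:6022682-6022702 and chrX:6023246-6023268, plus strand). They are printed 5′ to 3′ because miR-222 is the RNA that was raised, with the seed in capitals.
rno-miR-222-3p: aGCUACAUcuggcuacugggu
rno-miR-221-3p: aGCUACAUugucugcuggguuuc

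Before a cell copies its DNA, the origin recognition complex (ORC), Cdc6 and Cdt1 load the MCM helicase onto origins in an inactive form. At the start of S phase the kinase Cdc7 with its partner Dbf4, together with Cdc45 and GINS, turns it into a moving fork at which polymerases, the sliding clamp PCNA and its loader RFC work. Many of these genes are switched on at the end of G1 by transcription factors of the E2F family, which the retinoblastoma protein holds back, and most cardiomyocytes leave the cell cycle shortly after birth.

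Cells given miR-222 had lower transcript levels across most of this machinery. Of the 46 measured genes 30 fell, 2 rose and 14 did not pass an adjusted p under 0.05 in limma, where 13.0% of all genes fell and 11.7% rose. The median log2 fold change, miR-222 minus control, was -0.42 over the 46 genes and 0.01 over all genes, and 40 of the 46 were below 0. A fall of at least 1.5-fold was called in 17 of the 46 genes (37.0%), against 2.10% of all genes, and Mcm5, a helicase gene, fell by more than 2-fold. Over all 30 genes that fell the median size of the fall was 0.60, against 0.33 for all falling genes. The 4 miR-222 arrays lay below the 4 control arrays without overlap in 33 of the 46 genes and above them in 3, against 17.0% and 16.4% of all genes.

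**Figure D1:**
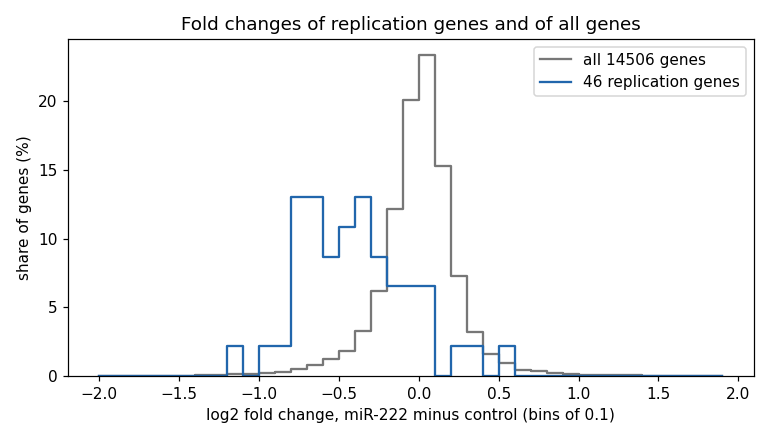
Share of genes (vertical axis, percent) by log2 fold change of miR-222 minus control (horizontal axis, bins of 0.1), for all 14506 genes in grey and the 46 replication genes in blue. The curve of the replication genes is centred at a median of -0.42 and runs from -1.15 to 0.50, while that of all genes peaks near 0.

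The fall was seen on all 4 miR-222 arrays, but to unequal depth. The mean centred log2 level over the 46 genes was 0.20, 0.15, 0.31 and 0.13 on control replicates 1 to 4 and -0.16, -0.14, -0.40 and -0.09 on miR-222 replicates 1 to 4. miR-222 replicate 3 was the lowest miR-222 array in 29 of the 30 genes that fell, and control replicate 3 the highest control array in 22 of them, against 57.6% and 29.1% of all falling genes. Without miR-222 replicate 3 28 members fell and the median was -0.33, without control replicate 3 27 fell at -0.38, and without both arrays, an alternative added after the data were seen, 26 fell at -0.30. The 2 rises were called in each of these fits. The RNA is from whole dishes, so fewer cells of a type and less RNA per cell cannot be told apart.

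**Figure D2:**
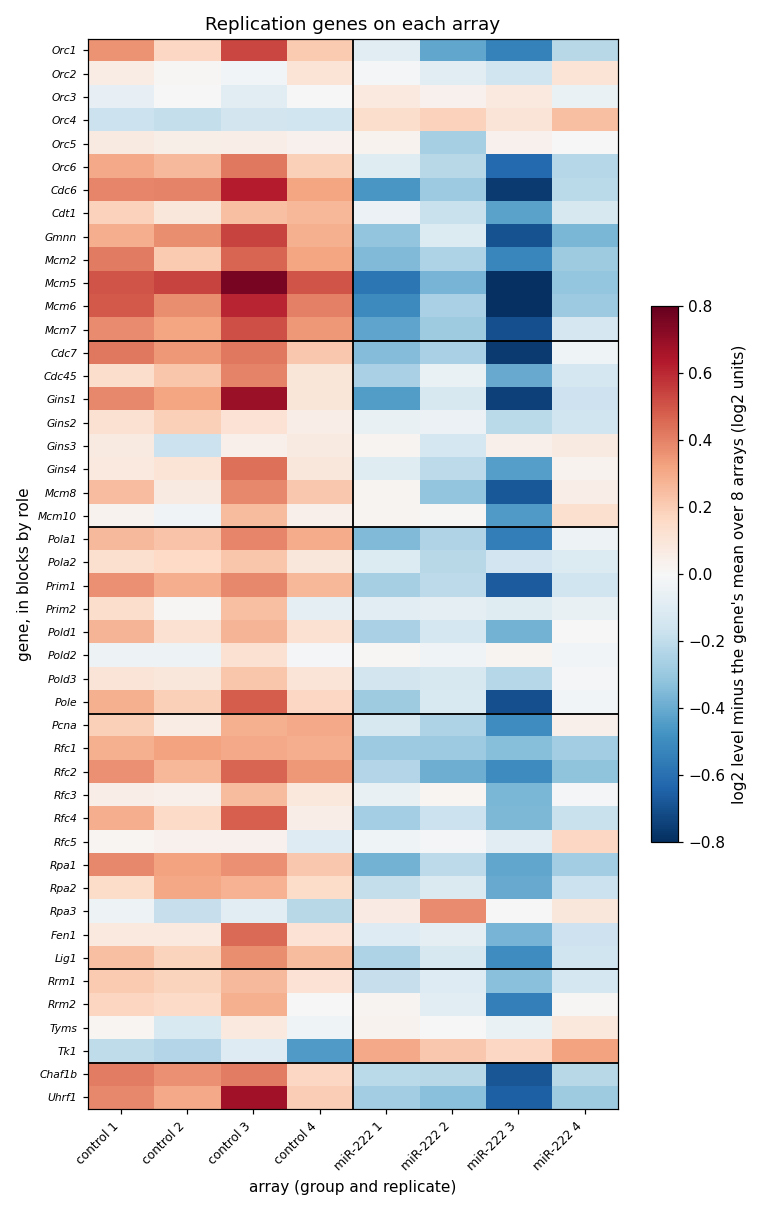
Level of each of the 46 genes (rows, in blocks by role) on each of the 8 arrays (columns), as log2 level minus that gene's mean over the arrays, red above and blue below it. The control columns are mostly red and the miR-222 columns mostly blue, deepest on miR-222 replicate 3, with Orc4, Rpa3 and Tk1 the other way round.

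Markers of cell types were read in the same arrays, and their counts stand beside 13.0% of all genes lower and 11.7% higher. Markers of cardiomyocytes were present in control cells, at 12.33 to 13.69 log2 units per gene against array medians of 7.66 to 7.77. Vim of the fibroblast list, at 13.18, and Acta2 of the smooth muscle list, at 13.26, stood in the same range. Levels of different probe sets do not give the shares of cell types in the dishes. Of 12 cardiomyocyte markers 3 fell and 9 did not pass. The changes of the 3 were -0.61 for Myh7, -0.36 for Ttn and -0.14 for Ryr2. The call of Ryr2 was lost with any single array removed except miR-222 replicate 2. The summed intensity of the 12 markers was 112873 to 115859 in control and 103349 to 106322 in miR-222 arrays. Of 12 fibroblast markers 5 fell and 7 did not pass. The changes of the 5 were -0.89 for Lum, -0.64 for Thy1, -0.54 for Postn, -0.35 for Ddr2 and -0.20 for Vim (limma adjusted p = 0.0152 for Vim). The count of fibroblast falls was 3 when control replicate 3, control replicate 4 or miR-222 replicate 1 was removed. The fibroblast sums were 19605 to 20939 against 16695 to 18565. Of 7 smooth muscle markers 3 fell and 4 did not pass, with sums of 17859 to 18210 against 13534 to 16257. The 3 that fell were Tagln at -0.91, Cspg4 at -0.72 and Pdgfrb at -0.49. Of 9 endothelial markers 1 fell and 8 did not pass. The one that fell was Kdr, a receptor of VEGF, from 9.71 ± 0.07 to 8.19 ± 0.18 (± SD, n = 4 per group). The endothelial sums were 2290 to 2500 against 1709 to 1891 with Kdr and 1467 to 1600 against 1442 to 1599 without it. Of 10 macrophage and leukocyte markers 1 was higher, a call lost when control replicate 1, 2 or 3 or any miR-222 array was left out, and their sums were 1209 to 1257 against 1257 to 1403. In control cells the 10 macrophage and leukocyte markers averaged 5.91 to 7.41, below all array medians. All endothelial markers but Kdr and Flt1 also averaged below these medians. Without background or detection values, sums and missing calls of such dim markers tell little. The part of these cell types in the fall of replication genes was not tested.

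All 4 measured subunits of the MCM helicase fell. Mcm5 stood at 9.13, 9.17, 9.39 and 9.13 log2 units on control replicates 1 to 4 and at 8.05, 8.26, 7.59 and 8.32 on miR-222 replicates 1 to 4. Its groups lay far apart, with miR-222 replicate 3 lowest, and the change of -1.15 (SE 0.16, limma adjusted p = 0.00177) is a 2.22-fold fall. For Mcm6 the control arrays read 9.96, 9.84, 10.08 and 9.87 and the miR-222 arrays 8.96, 9.21, 8.65 and 9.18, a change of -0.94 (SE 0.13, limma adjusted p = 0.00162). Mcm7 went from 9.87, 9.81, 10.01 and 9.84 to 9.07, 9.21, 8.79 and 9.36, and Mcm2 from 10.28, 10.07, 10.33 and 10.18 to 9.51, 9.62, 9.34 and 9.58. In each of the 4 genes every miR-222 array was below every control array. The changes were -0.77 (SE 0.12, limma adjusted p = 0.00283) for Mcm7 and -0.70 (SE 0.08, limma adjusted p = 7.07e-04) for Mcm2, and the 4 calls held with any single array left out. Mcm3 and Mcm4, the remaining subunits of the ring, were not analysed here.

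The promoters of these 4 genes hold letters to which E2F factors are known to bind. Windows of 300 bases, 250 before to 50 after each annotated start, were taken from RefSeq (GRCr8) and searched for TTTCCCGC, TTTGGCGC, TTTGCCGC and TTTCGCGC on both strands, with overlapping matches joined into 1 stretch. Below are the 250 bases before the start of the 4 helicase genes, shown because they fell furthest as a complex, and of Tk1, shown because it rose, 5′ to 3′ on the gene's strand with matches in capitals. Mcm2 lies at chr4:122918095-122918344 on the minus strand, Mcm5 at chr19:13488563-13488812 on the plus strand, Mcm6 at chr13:42404353-42404602 on the minus strand, Mcm7 at chr12:22163179-22163428 on the minus strand and Tk1 at chr10:103544778-103545027 on the minus strand.
Mcm2: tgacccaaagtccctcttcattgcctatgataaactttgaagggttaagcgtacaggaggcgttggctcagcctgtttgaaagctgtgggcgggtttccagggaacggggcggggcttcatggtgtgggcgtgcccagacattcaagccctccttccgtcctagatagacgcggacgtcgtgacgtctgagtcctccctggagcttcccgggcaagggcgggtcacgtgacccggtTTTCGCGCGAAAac
Mcm5: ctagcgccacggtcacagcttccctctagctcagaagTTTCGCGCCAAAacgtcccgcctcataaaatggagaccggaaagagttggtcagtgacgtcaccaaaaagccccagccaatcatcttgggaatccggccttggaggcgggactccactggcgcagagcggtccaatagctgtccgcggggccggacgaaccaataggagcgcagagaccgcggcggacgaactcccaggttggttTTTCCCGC
Mcm6: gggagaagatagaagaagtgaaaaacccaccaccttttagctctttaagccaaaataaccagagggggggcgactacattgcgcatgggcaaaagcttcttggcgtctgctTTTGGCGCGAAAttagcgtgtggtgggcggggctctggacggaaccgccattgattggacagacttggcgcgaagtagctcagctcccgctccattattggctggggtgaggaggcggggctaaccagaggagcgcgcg
Mcm7: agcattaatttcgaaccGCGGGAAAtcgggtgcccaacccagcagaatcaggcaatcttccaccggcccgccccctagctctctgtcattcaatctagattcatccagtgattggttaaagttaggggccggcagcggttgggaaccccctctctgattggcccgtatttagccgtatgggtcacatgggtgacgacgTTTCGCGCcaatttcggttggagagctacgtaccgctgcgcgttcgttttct
Tk1: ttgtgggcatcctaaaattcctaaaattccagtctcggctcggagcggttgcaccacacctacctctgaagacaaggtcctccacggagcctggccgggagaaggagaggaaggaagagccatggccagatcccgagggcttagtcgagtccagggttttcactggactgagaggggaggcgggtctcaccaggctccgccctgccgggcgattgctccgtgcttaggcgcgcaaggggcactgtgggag

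Mcm5 and Mcm7 have 2 such stretches each, and Mcm2 and Mcm6 have 1 each, made of overlapping matches on both strands. The window of Tk1 holds none of these letters, which says nothing of the factor itself. Windows were found for 43 of the 49 genes, all but Orc1, Orc4, Cdc6, Gins4, Rpa3 and Rrm2, and 20 of the 43 genes (46.5%) held a match, against 2.14% of all 33469 windows and 3.18% of the 11968 measured genes with a window. Uhrf1 has several annotated starts and counts as holding a match if 1 of its windows does. The median GC content was 60.3% in the windows of the 43 genes, 58.0% in those of measured genes and 51.7% in all windows. Of the 28 falling genes with a window 13 held a match, and of the 11 that did not pass 6 did. Besides these and Tk1, the 43 genes include Dbf4, Pole2 and Chaf1a, whose transcripts were not measured. Of these Pole2 held a match.

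The CCAAT box, known as a site of the factor NF-Y, was found on either strand in 24 of the 43 genes (55.8%). The share was 37.5% of all windows and 39.0% of measured genes with a window. The box was in 18 of the 28 that fell, 5 of the 11 that did not pass and Chaf1a, and not in Tk1. In Mcm7 a CCAAT box overlaps an E2F stretch by its first letter. The letters TTTGAA, the CHR element known from genes of G2 and mitosis, were found in 5 of the 43 genes (11.6%). The share was 18.3% of all windows and 15.6% of measured genes with a window. A match is a description of the letters and not a site shown to be bound.

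**Figure D3:**
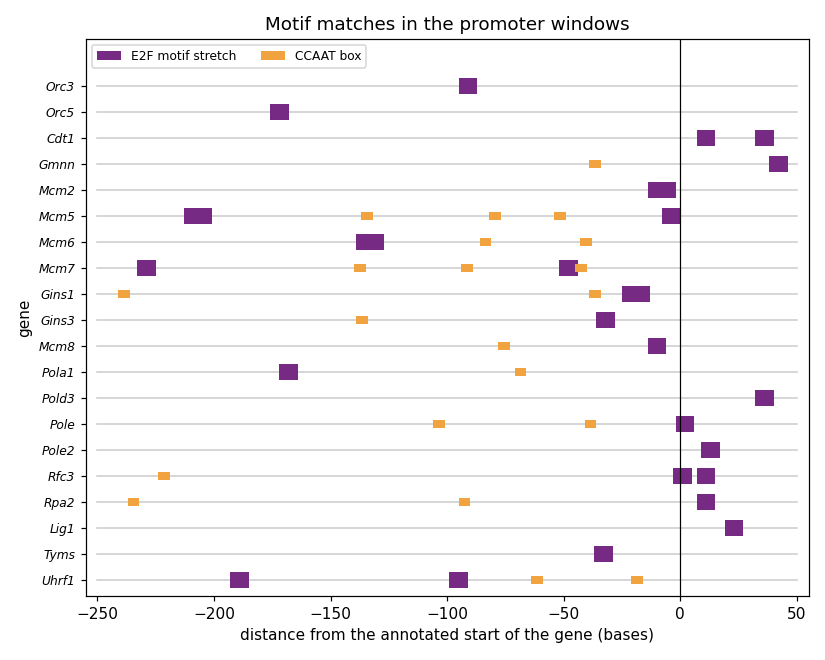
Motif stretches by distance in bases from the annotated start (horizontal axis, 0 is the start) for the 20 genes whose window holds an E2F match (rows), with E2F stretches in purple and CCAAT boxes in orange. The 6 E2F stretches of Mcm2, Mcm5, Mcm6 and Mcm7 all lie before the start.

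Of the other genes that load the helicase, the loading factors fell, and ORC subunits gave falls, a rise and values that did not pass. Over the 13 licensing genes, MCM included, 9 fell, 1 rose and 3 did not pass, with a median of -0.63. Cdc6, the ATPase that brings the helicase to ORC, read 8.31, 8.32, 8.55 and 8.24 in control and 7.46, 7.63, 7.16 and 7.71 in miR-222 arrays, a change of -0.87 (SE 0.12, limma adjusted p = 0.00224). Cdt1, which carries the helicase there, fell by 0.39 (SE 0.09, limma adjusted p = 0.0153), from 7.91 to 8.08 in control to 7.39 to 7.77 in miR-222 arrays. Its inhibitor Gmnn, geminin, fell as well, from 9.16, 9.24, 9.41 and 9.15 to 8.55, 8.76, 8.17 and 8.50, a change of -0.74 (SE 0.12, limma adjusted p = 0.00394). The loader and its inhibitor thus moved the same way, without overlap between the groups in either gene.

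Of the 6 ORC subunits 2 fell, 1 rose and 3 did not pass. Orc1, the ATPase subunit whose protein comes and goes with the cell cycle, read 7.30, 7.11, 7.48 and 7.15 in control and 6.86, 6.53, 6.40 and 6.72 in miR-222 arrays, a change of -0.63 (SE 0.12, limma adjusted p = 0.00731) at levels below the array medians. Orc6, the smallest subunit, changed by -0.59 (SE 0.11, limma adjusted p = 0.00768), from 8.10 ± 0.10 in control to 7.52 ± 0.22 in miR-222 arrays (± SD, n = 4 per group). Orc4, an ATPase-like subunit of the core, was 9.62, 9.60, 9.64 and 9.63 in control and 9.93, 9.97, 9.89 and 10.03 in miR-222 arrays. These are tight groups that did not overlap, with a rise of 0.33 (SE 0.04, limma adjusted p = 0.00132). The core subunits Orc2 at -0.08, Orc3 at 0.07 and Orc5 at -0.10 did not pass, and their groups overlapped.

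**Figure D4:**
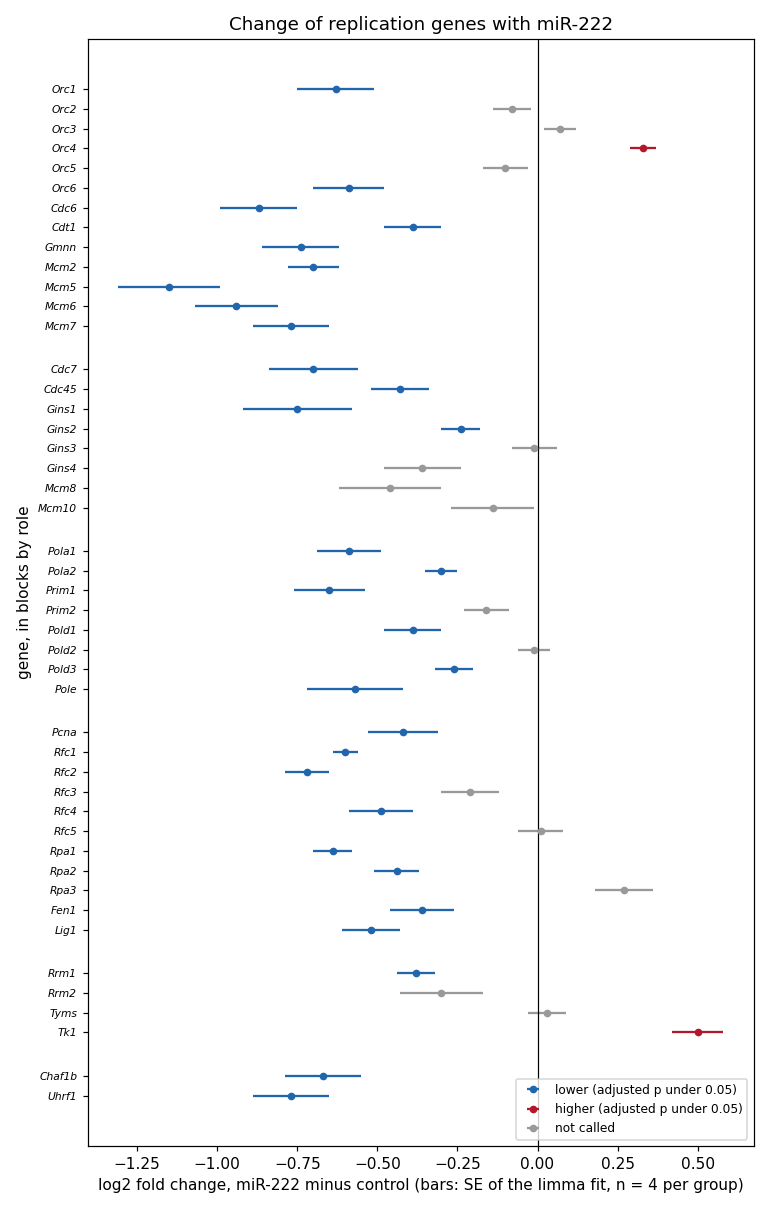
Log2 fold change of miR-222 minus control (horizontal axis) of each of the 46 genes (rows, in blocks by role), with the SE of the limma fit as bars, n = 4 per group. Genes that fell are in blue, the 2 that rose, Orc4 and Tk1, in red, and the 14 that did not pass in grey.

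Among genes that fire origins and form the moving helicase 4 of 8 measured members fell and 4 did not pass, with a median of -0.40. Cdc7, the kinase that switches the MCM ring on, read 8.30, 8.22, 8.30 and 8.09 in control and 7.53, 7.62, 7.11 and 7.84 in miR-222 arrays, a change of -0.70 (SE 0.14, limma adjusted p = 0.0111). Cdc45, which joins the ring to form the active helicase, fell by 0.43 (SE 0.09, limma adjusted p = 0.0156), from 8.49 to 8.79 to 7.99 to 8.34. Mcm10, which helps the fork to start, changed by -0.14 (SE 0.13, limma adjusted p = 0.512), with only miR-222 replicate 3, at 8.45, outside the control range of 8.87 to 9.15 on the low side. Mcm8, an MCM relative that acts in repair by recombination, was at -0.46 (SE 0.16) and did not pass (limma adjusted p = 0.0923). Its groups did not overlap, at 6.89 to 7.20 and 6.14 to 6.87, all below the array medians.

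The 4 subunits of GINS, the complex that bridges helicase and polymerase, gave 2 falls and 2 values that did not pass. Differences between subunits of a complex were not tested. Gins1 fell from 7.87, 7.80, 8.18 and 7.58 to 7.04, 7.36, 6.74 and 7.32, by 0.75 (SE 0.17, limma adjusted p = 0.0167). Gins2 fell by 0.24 (SE 0.06, limma adjusted p = 0.0194), from 8.31 to 8.45 to 8.04 to 8.21, but the call ended when control replicate 1, control replicate 2 or miR-222 replicate 4 was removed (adjusted p up to 0.0571) and when control and miR-222 replicates 3 were removed together. Gins3 read 7.77, 7.53, 7.74 and 7.77 in control and 7.72, 7.56, 7.74 and 7.77 in miR-222 arrays, so its groups coincided (log2 fold change -0.01, SE 0.07). Gins4 was at -0.36 (SE 0.12) and did not pass (limma adjusted p = 0.0698), although its groups did not overlap, and it passed as a fall in the upper 60% of probe sets and with the variance prior that follows the level.

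Of 8 measured genes of polymerases and primase 6 fell and 2 did not pass, with a median of -0.34. Pola1 encodes the catalytic subunit of polymerase alpha, which with primase lays down the first stretch of each new strand. It lay between 8.93 and 9.09 on the control arrays and read 8.35, 8.46, 8.15 and 8.66 on the miR-222 arrays, a change of -0.59 (SE 0.10, limma adjusted p = 0.00505). Its partner Pola2 changed by -0.30 (SE 0.05, limma adjusted p = 0.00336), from 10.15 to 10.28 to 9.84 to 9.95. Prim1, the subunit of primase that makes the RNA primer, fell from 10.95, 10.88, 10.97 and 10.85 to 10.32, 10.38, 9.92 and 10.43, by 0.65 (SE 0.11, limma adjusted p = 0.0045). In these 3 genes no miR-222 array reached a control array. Prim2, the other subunit, was at -0.16 (SE 0.07, limma adjusted p = 0.166) with overlapping groups.

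Polymerase delta, which copies the lagging strand, had 2 of its 4 measured subunits lower. The catalytic Pold1 read 8.95, 8.80, 8.95 and 8.80 in control and 8.42, 8.54, 8.30 and 8.68 in miR-222 arrays, a change of -0.39 (SE 0.09, limma adjusted p = 0.0166) whose call was lost without control replicate 1 (adjusted p = 0.0515). The accessory Pold3 fell by 0.26 (SE 0.06, limma adjusted p = 0.0154), from 9.31 to 9.44 to 8.99 to 9.20. Both calls were lost without control and miR-222 replicates 3 together. Pold2, the subunit that joins the others, read 10.45, 10.45, 10.61 and 10.48 in control and 10.50, 10.46, 10.51 and 10.47 in miR-222 arrays. Its groups overlapped. The small subunit Pold4, which is not among the 49 genes, was at -0.09 and did not pass either (limma adjusted p = 0.524). Pole, the catalytic subunit of the leading-strand polymerase epsilon, fell by 0.57 (SE 0.15, limma adjusted p = 0.0318), from 9.31 ± 0.15 to 8.74 ± 0.30 (± SD, n = 4 per group). Removing miR-222 replicate 1 or any of the 4 control arrays ended this call (adjusted p up to 0.0802).

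Of the 11 genes of the clamp, its loader, single-strand binding and the joining of fragments 8 fell and 3 did not pass, with a median of -0.44. Pcna, the ring that holds polymerases on DNA, read 10.75, 10.62, 10.84 and 10.86 in control and 10.43, 10.31, 10.06 and 10.60 in miR-222 arrays. The groups came within a few hundredths of a log2 unit of each other, at a change of -0.42 (SE 0.11, limma adjusted p = 0.0373). That call held only when control replicate 2 or miR-222 replicate 4 was the array removed, and ended for the other 6 (adjusted p up to 0.0908) and for control and miR-222 replicates 3 together.

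RFC opens the clamp and sets it on DNA. Its large subunit Rfc1 had the smallest p of the 46 genes, at 9.97, 10.01, 9.99 and 9.98 in control and 9.40, 9.40, 9.35 and 9.41 in miR-222 arrays, a change of -0.60 (SE 0.04, limma adjusted p = 5.43e-05). Here miR-222 replicate 3 lay close to the other miR-222 arrays. Rfc2 fell from 9.04, 8.94, 9.14 and 9.02 to 8.44, 8.28, 8.17 and 8.35, by 0.72 (SE 0.07, limma adjusted p = 3.61e-04), and Rfc4 by 0.49 (SE 0.10, limma adjusted p = 0.0096). Rfc3 at -0.21 and Rfc5 at 0.01 did not pass (limma adjusted p = 0.163 and 0.941). The groups of Rfc3 did not overlap, at 8.25 to 8.46 in control and 7.84 to 8.22 in miR-222 arrays. Rfc5 read 8.78, 8.80, 8.80 and 8.66 in control and 8.73, 8.75, 8.68 and 8.93 in miR-222 arrays, with overlapping groups.

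RPA coats unwound single strands. Rpa1, its large subunit, fell from 10.95, 10.89, 10.93 and 10.78 to 10.19, 10.36, 10.15 and 10.29, by 0.64 (SE 0.06, limma adjusted p = 3.89e-04), and Rpa2 by 0.44 (SE 0.07, limma adjusted p = 0.00436). The small subunit Rpa3 stood at 9.07, 8.93, 9.02 and 8.89 in control and at 9.18, 9.49, 9.11 and 9.20 in miR-222 arrays, which do not overlap. Its value was 0.27 (SE 0.09) and did not pass (limma adjusted p = 0.0734), and a second, dimmer probe set gave 0.27 (SE 0.10, limma adjusted p = 0.0959). Rpa3 passed as a rise when only the upper 60% of probe sets were tested, with a variance prior that follows the level, and as the mean of both probe sets.

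Fen1 and Lig1 finish the lagging strand. Lig1, the ligase that seals it, fell from 10.30, 10.24, 10.43 and 10.31 to 9.81, 9.93, 9.56 and 9.90, by 0.52 (SE 0.09, limma adjusted p = 0.00468). Fen1, the nuclease that trims the flaps, fell by 0.36 (SE 0.10, limma adjusted p = 0.0467), from 7.82, 7.82, 8.20 and 7.86 to 7.64, 7.67, 7.37 and 7.58. This call is the least firm of the set, since leaving out any single array ended it (adjusted p of 0.056 to 0.104).

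The 4 enzymes of nucleotide supply counted 1 lower, 1 higher and 2 not past the threshold. Rrm1, the large subunit of ribonucleotide reductase, which makes the deoxyribonucleotides, fell from 11.92, 11.89, 11.97 and 11.83 to 11.53, 11.61, 11.38 and 11.57, by 0.38 (SE 0.06, limma adjusted p = 0.00352). A dimmer probe set of Rrm1 gave -0.40 (SE 0.12, limma adjusted p = 0.0493). Its small subunit Rrm2 was at -0.30 (SE 0.13, limma adjusted p = 0.162) and at -0.32 (SE 0.14, limma adjusted p = 0.158) by another probe set. On the first of these, miR-222 replicate 3 stood at 10.83 while the other miR-222 arrays lay at 11.29 to 11.40, overlapping the control range of 11.38 to 11.66.

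Tyms, thymidylate synthase, which makes thymidylate anew, read 10.82, 10.68, 10.88 and 10.77 in control and 10.83, 10.81, 10.75 and 10.89 in miR-222 arrays, and its groups overlapped (0.03, SE 0.06). Tk1, the thymidine kinase that recovers it from thymidine, rose from 9.51, 9.48, 9.61 and 9.26 to 10.02, 9.93, 9.88 and 10.04. Every miR-222 array was above every control array, and the rise of 0.50 (SE 0.08, limma adjusted p = 0.00327) was the largest of the 46 genes. It passed with any single array left out.

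Both measured genes that restore chromatin behind the fork fell. Chaf1b, a subunit of the chromatin assembly factor that places new histones, read 8.81, 8.77, 8.81 and 8.57 in control and 8.19, 8.18, 7.72 and 8.18 in miR-222 arrays, a change of -0.67 (SE 0.12, limma adjusted p = 0.00512). Uhrf1, which guides maintenance methylation to newly copied DNA, went from 8.52, 8.44, 8.81 and 8.33 to 7.86, 7.80, 7.48 and 7.85, a change of -0.77 (SE 0.12, limma adjusted p = 0.00354). The groups of both genes lay apart with miR-222 replicate 3 lowest, and both calls held with any single array left out.

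Replication genes outside these 49 were listed as well. Of 36 such genes 22 were measured, of which 9 fell (40.9%, against 13.0% of all genes), 0 rose and 13 did not pass in limma, with a median of -0.23, and at an unadjusted p under 0.05 12 were lower and 1 higher. In 2 settings, the upper 60% of probe sets and the variance prior that follows the level, 1 of them rose. Dnmt1, the maintenance methyltransferase that Uhrf1 guides, averaged 10.33 ± 0.05 log2 units in control and 9.50 ± 0.12 in miR-222 arrays (± SD, n = 4 per group), a fall of 0.84 (limma adjusted p = 1.68e-04). Pole4, a small subunit of polymerase epsilon, changed by -0.67 (SE 0.05), Wdhd1, which ties polymerase alpha to the helicase, by -0.69 (SE 0.08) and Tipin of the fork protection complex by -0.81 (SE 0.11). These 4 genes had the smallest p of the list.

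A list of 16 genes held E2F factors, their partners, the pocket proteins that restrain them, and also Lin9, Lin54 and Mybl2. Of the 10 that were measured, Lin54 and Mybl2 included, 2 fell, 1 rose and 7 did not pass. Of all genes 13.0% fell and 11.7% rose. The falls were 4 and the rises 2 in the upper 60% of probe sets, with the variance prior that follows the level and with array weights. With 1 array left out the falls were 1 or 2 and the rises 0 or 1, and no rise was left with arrays centred on their medians. Mybl2, a transcription factor gene that is itself a known E2F target, averaged 8.43 ± 0.06 log2 units in control and 8.04 ± 0.04 in miR-222 arrays (± SD, n = 4 per group) and fell by 0.39 (limma adjusted p = 9.82e-04). E2f8, a repressing E2F, changed by -0.34 (limma adjusted p = 0.0493), which no longer passed whichever array was removed (adjusted p up to 0.111). Rb1, the retinoblastoma gene, rose by 0.26 (limma adjusted p = 0.0329), which ended with each array centred on its median and with any of 6 arrays removed, all except control replicate 4 and miR-222 replicate 2 (adjusted p up to 0.0904). E2f1, an activating E2F, was at -0.27 (SE 0.08) and did not pass (limma adjusted p = 0.0527).

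Genes of the later steps of the cell cycle, G2 and mitosis, gave other values in the same arrays. Of 25 measured, 0 fell and 4 rose by limma, where 11.7% of all genes rose, and the median was 0.08. At an unadjusted p under 0.05 in the same fit 0 were lower and 6 higher. Besides the securin gene Pttg1, Cdc25b, Ect2 and Ccnb2 rose, and the highest change was 0.69, for Pttg1. The call of Ccnb2 ended when miR-222 replicate 1 or 4 was removed (adjusted p up to 0.0519). The difference between this list and the replication genes was not tested. Its mean centred level was -0.09, -0.03, 0.12 and -0.30 on control replicates 1 to 4 and 0.22, 0.19, -0.33 and 0.22 on miR-222 replicates 1 to 4. miR-222 replicate 3 was thus low in both lists, and without it 7 genes of G2 and mitosis rose and the median was 0.25. Without control and miR-222 replicates 3 together 12 rose. The count was 3 without miR-222 replicate 1 or 4, and 4 without miR-222 replicate 2 or any 1 control array.

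**Figure D5:**
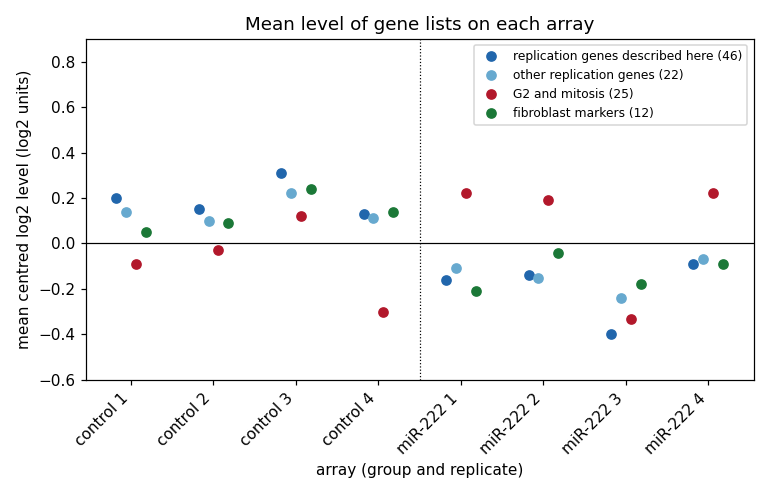
Mean centred log2 level (vertical axis, log2 units) of 4 gene lists on each of the 8 arrays (horizontal axis), with the number of measured genes in brackets. The replication genes described here are above 0 on all control and below 0 on all miR-222 arrays, while the genes of G2 and mitosis are above 0 on 3 miR-222 arrays and at -0.33 on miR-222 replicate 3.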

How the data were processed

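The deposited table held probe set intensities on a linear scale, from 0.8 to 16339, with array medians of 202 to 219. The closeness of the medians fits values normalized between arrays, but the sources used here do not say how the authors made the intensities. Scanner files and detection calls were not analysed here. The series text names another Affymetrix rat array, but the identifiers pair with the annotation of the Rat Gene 1.0 ST array. Of 29170 probe sets 15310 paired with 1 gene, 323 with several and 13537 with none.

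Values were taken as log2 without a pseudocount. All probe sets were fitted by lmFit and eBayes of limma 3.58.1 (R 4.3.3) with no filter on low values, and 2-sided p-values were adjusted over all of them by Benjamini and Hochberg at 0.05. "Rose" and "fell" mean past that threshold. Simulated arrays with known changes were used to test the fit. Replicates are numbered in the order of listing, since the labels give no replicate number, pairing or batch. The number of arrays limits the precision (median SE 0.09 log2 units over the 46 genes). Effects of the scrambled RNA itself are part of every difference.

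The 49 genes and all other lists were chosen with earlier results of these data known, so no list was tested. A rule set values per array for the 10 largest falls, all rises, up to 3 further genes per role with the smallest p, and the remaining members of a complex. It was not kept throughout. Some of these genes, such as Rpa2, Orc2 and Prim2, were given by their change alone and others by a range or mean. Pcna and Fen1 were given per array outside the rule. Of the other lists, cell type markers aside, up to 4 called genes with the smallest p were named. Of the markers all that fell were named, and also Acta2, not by this rule. E2f1, and the genes named where a count holds few, were chosen after their values were seen. Plots were made in Python 3.11.15 with matplotlib 3.10.9.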

Additional observations from a re-analysis of the deposited data

Results flagged for a closer look

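In 92 groups of 4 arrays, 46 genes in each of 2 groups, 10 arrays stood apart from the other 3 of their group by Dixon's test at its 95% limit, where chance flags about 1 in 20 groups. Of these, 5 were control replicate 3 on the high side. Mcm5 was at 9.39 log2 units there against 9.13 to 9.17, Gins4 at 8.86 against 8.50 to 8.53 and Pold3 at 9.44 against 9.31 to 9.32. Rfc3 was at 8.46 against 8.25 to 8.29 and Fen1 at 8.20 against 7.82 to 7.86. miR-222 replicate 3 stood apart on the low side for Chaf1b, at 7.72 against 8.18 to 8.19, and for Uhrf1, at 7.48 against 7.80 to 7.86. The others were Orc5 on miR-222 replicate 2, at 9.44 against 9.70 to 9.74, Gins3 on control replicate 2, at 7.53 against 7.74 to 7.77, and Rfc5 on control replicate 4, at 8.66 against 8.78 to 8.80. Genes that move together make these flags dependent on each other.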

How the results depend on the processing

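The count of 30 falling genes was 30 or 31 under a pseudocount of 16, the upper 60% of probe sets (which hold 44 of the 46 genes), a further quantile normalization, centring on array medians, a variance prior with trend, array weights, the mean of a gene's probe sets and adjustment over genes alone, and 25 to 28 when 1 array was left out. The rises numbered 2 or 3 in all of these settings. The median stayed between -0.45 and -0.33 with 1 array left out and between -0.45 and -0.38 otherwise. Of the 32 calls 27 held without any single array and 5, Gins2, Pold1, Pole, Pcna and Fen1, did not, and no called gene changed sign under the alternatives run. Over all genes 2686 to 3404 passed with 1 array left out and 3053 to 4256 in the other planned settings, against 3580. The list of cardiomyocyte markers had 5 falls in the upper 60% of probe sets and 8 with the trend prior, against 3. It had 2 with the further quantile normalization and 2 or 3 with 1 array left out. The cause of these differences was not tested. No paired analysis was possible because the labels give no replicate numbers. Without background or detection values, changes of the dim genes Orc1, Mcm8 and Gins1 may be understated.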

Other observations

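Genes of nucleotide synthesis outside the 49 moved in both directions. Of 24 listed genes 20 were measured, of which 8 fell (40.0%, against 13.0% of all genes), 2 rose and 10 did not pass. The falls were 6 or 7 with any single array left out and 7 with the further quantile normalization. They were 4 without control and miR-222 replicates 3 together. Dck, the kinase that recovers deoxycytidine, averaged 9.39 ± 0.08 log2 units in control and 8.65 ± 0.16 in miR-222 arrays (± SD, n = 4 per group, limma adjusted p = 7.53e-04). Ctps1, which makes CTP, averaged 10.83 ± 0.10 and 10.43 ± 0.05 (limma adjusted p = 0.00243). Genes of the making of purines, named here after their values were seen, were called in both directions. Gart fell by 0.28 (limma adjusted p = 0.00525), Paics by 0.15 (limma adjusted p = 0.0273) and Gmps by 0.20 (limma adjusted p = 0.0153). Ppat, which carries out its first committed step, rose by 0.33 (SE 0.05, limma adjusted p = 0.00272) and Atic, which carries out its last steps, by 0.26 (SE 0.04, limma adjusted p = 0.00446). Thus the salvage kinase for deoxycytidine fell while Tk1, that for thymidine, rose by 0.50, and the difference between these genes was not tested.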
